A study of Mus musculus with 12 samples.

Results

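The enzymes described here are those that lead up to the final transferases of phospholipid synthesis, together with the phosphatidylserine route to phosphatidylethanolamine (PE). They are the choline kinases Chka and Chkb, the ethanolamine kinases Etnk1 and Etnk2, the cytidylyl transferases Pcyt1a, Pcyt1b and Pcyt2, the phosphatidylserine synthases Ptdss1 and Ptdss2, and the phosphatidylserine decarboxylase Pisd. Members were taken by symbol from 22170 gene names. Of the 10 symbols, 9 occur as gene names in the deposited table, and Chkb does not. FPKM (fragments per kilobase of transcript, scaled to the mapped fragments of the library) was summed over all rows of a gene name in each liver, where a row is either a known transcript or one assembled from the reads.

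Livers came from 12 male C57BL/6J mice aged 21 weeks, 3 per group, that had been fed their diet for 16 weeks. The ND group received a normal diet and the HFD group a high-fat diet. The CLE group, abbreviated CLL in the labels, received the high-fat diet with 1.5% leaf extract of Chrysanthemum morifolium, and the LU group the high-fat diet with 0.003% luteolin, a flavone of that leaf. Each library was an mRNA library made from total RNA of liver tissue. The mice were fasted, and the study had picked them as representative of larger groups. The mice bear the numbers 2, 3 and 4 (ND), 12, 15 and 18 (HFD), 2, 4 and 11 (CLE) and 2, 3 and 8 (LU), and values are given in that order throughout.

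In the CDP-choline branch of the Kennedy pathway, a choline kinase makes phosphocholine, CTP:phosphocholine cytidylyl transferase turns it into CDP-choline in the step that usually limits the rate, and a transferase joins the head group to diacylglycerol as phosphatidylcholine (PC). Ethanolamine passes through the parallel steps of ethanolamine kinase and Pcyt2 to PE. Mitochondria make PE by another route, in which Ptdss1 and Ptdss2 exchange the head groups of PC and PE for serine and Pisd decarboxylates the product. Liver also methylates PE to PC through Pemt, and it spends much PC on lipoproteins and bile.

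The upstream sequence of those members that passed a test below, and for which RefSeq gives one, is printed to show what lies ahead of the start site. Promoter entries (GRCm38.p6) were found for 8 of 10 members and not for Pcyt2 and Ptdss1. Each line holds the 250 bases before the annotated start, in the direction of the gene: Pcyt1a at chr16:32430671-32430920 on the plus strand, from the first of its 3 start sites, Chkb at chr15:89429928-89430177 on the minus strand and Etnk1 at chr6:143166980-143167229 on the plus strand. Capitals mark matches, on either strand, to TCACNCCAC (letters like a sterol regulatory element), GGGCGG (GC box), CCAAT and CACGTG (E-box).
Pcyt1a: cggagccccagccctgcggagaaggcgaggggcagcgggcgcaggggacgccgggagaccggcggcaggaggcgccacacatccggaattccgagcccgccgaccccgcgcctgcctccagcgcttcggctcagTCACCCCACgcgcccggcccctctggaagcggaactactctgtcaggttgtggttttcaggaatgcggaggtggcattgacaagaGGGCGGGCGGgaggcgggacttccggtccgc
Chkb: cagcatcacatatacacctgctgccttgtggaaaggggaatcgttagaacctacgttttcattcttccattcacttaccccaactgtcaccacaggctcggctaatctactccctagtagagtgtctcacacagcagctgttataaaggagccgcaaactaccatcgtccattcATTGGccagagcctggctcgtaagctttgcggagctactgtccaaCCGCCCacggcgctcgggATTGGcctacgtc
Etnk1: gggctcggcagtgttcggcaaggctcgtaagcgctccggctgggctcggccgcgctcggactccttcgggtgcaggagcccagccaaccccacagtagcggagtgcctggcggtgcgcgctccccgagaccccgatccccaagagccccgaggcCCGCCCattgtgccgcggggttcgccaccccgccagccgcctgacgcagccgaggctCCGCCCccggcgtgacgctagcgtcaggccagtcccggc
The Pcyt1a window held TCACNCCAC at bases -116 to -108 before the start, which 1.05% of all 32851 windows of this length held, and a pair of GC boxes that overlap. The Chkb window held 2 CCAAT letters and 1 GC box, all on the opposite strand, and the Etnk1 window 2 GC boxes on the opposite strand. GC boxes were in 32.7% of all windows, CCAAT in 33.8% and the E-box, absent from these windows, in 6.02%. These are matches of letters and were not tested for binding.

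The symbols and the rows did not always correspond. All 9 rows of Chkb transcripts (chr15:89426360-89429908, minus strand) carry the name of the neighbouring Cpt1b, a carnitine palmitoyltransferase that lies next to it and shares readthrough transcripts with it. The 19 rows named Pisd lie on the unplaced scaffold JH584304.1, at the GENCODE M21 gene AC149090.1 (52190 to 59690, minus strand), while the rows of the Pisd gene on chromosome 5 (chr5:32736301-32785646, minus strand) carry the name of its neighbour Prr14l. Chkb and the chromosome 5 Pisd were therefore summed over the known transcripts that M21 assigns to them, 9 and 8 rows, and tested in a second fit over 11966 M21 genes. Reads that Pisd shares with its scaffold copy and with the pseudogenes Pisd-ps1 and Pisd-ps2 could have been divided among them, so the values of each are uncertain.

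Levels differed widely among the members. Pcyt2, the cytidylyl transferase of the ethanolamine branch, had the highest level with 315 FPKM on average over the 12 livers, followed by Etnk2 with 138.0 FPKM, the scaffold Pisd with 83.8 and Chkb with 52.7. Chka (27.5), Etnk1 (21.7), Pcyt1a (21.5), Ptdss1 (18.9) and the chromosome 5 Pisd (18.2) had similar levels, and their ranges over livers overlapped one another. Ptdss2 followed with 5.87 FPKM and lay below all of these in each liver. Pcyt1b, the cytidylyl transferase known best from brain and gonads, lay between 0.0182 and 0.0634 FPKM in all livers, under the minimum mean of 0.5 FPKM that a gene needed to be tested. The ethanolamine branch was thus represented mainly by Etnk2 and Pcyt2, both at over 100 FPKM in all 12 livers.

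**Figure D1:**
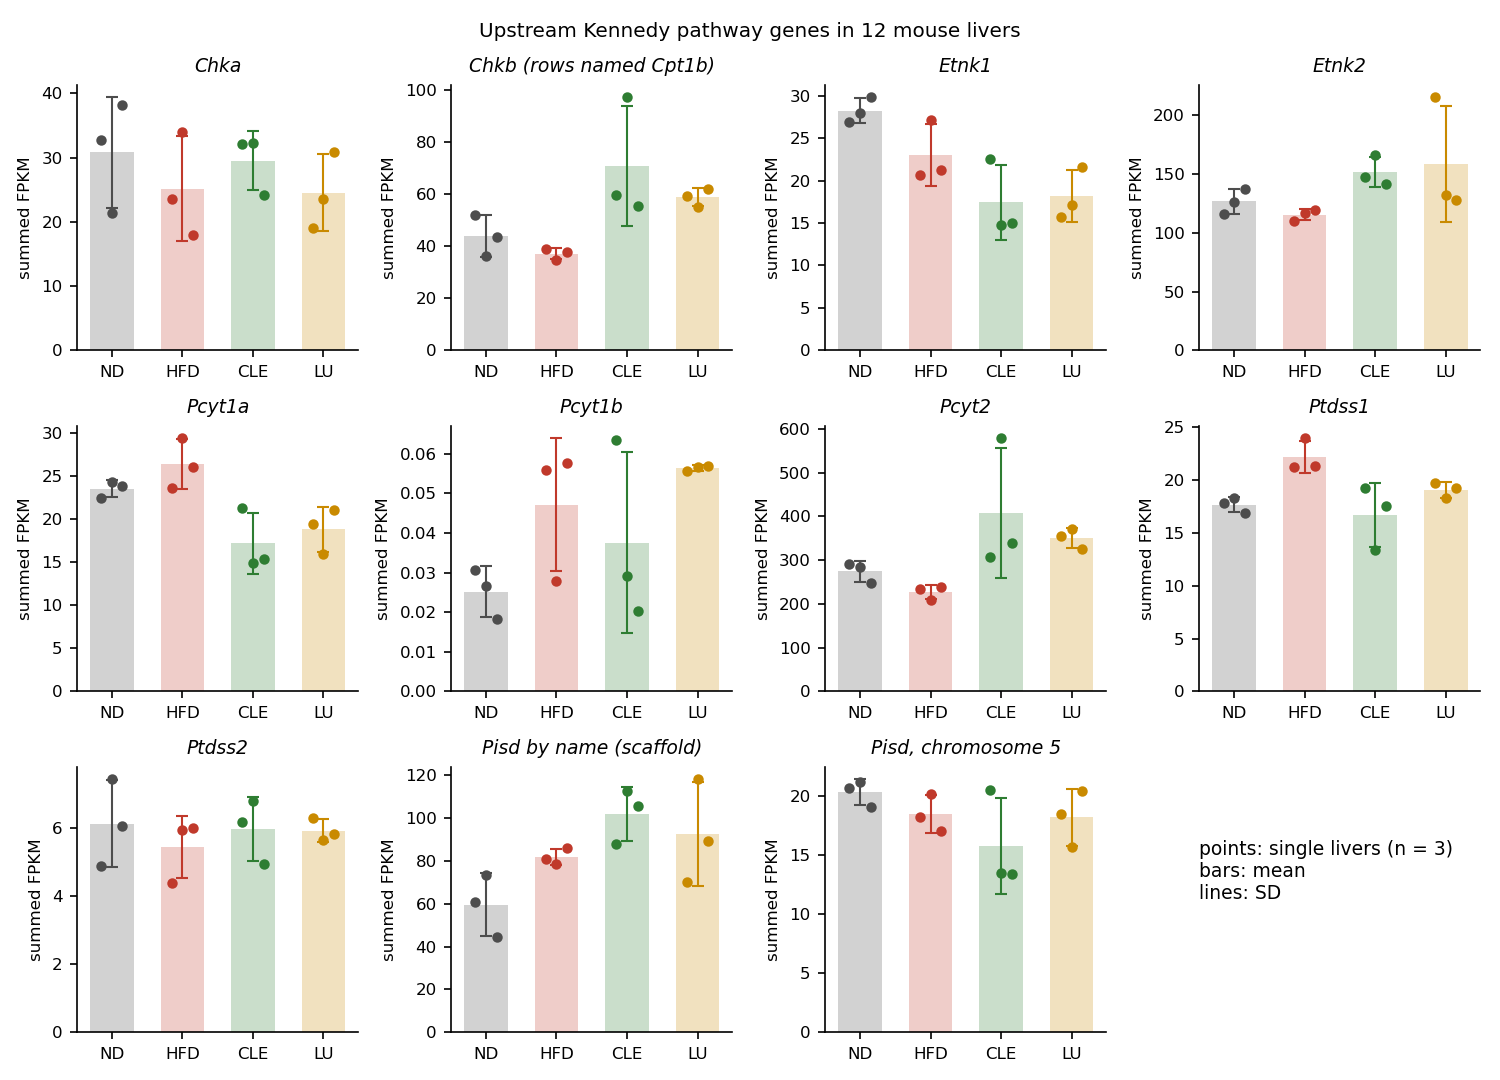
Summed FPKM (y axis, from 0) of the 10 members in each liver by group, with Pisd drawn for both loci. Points are single livers, bars means and lines SD (n = 3). Pcyt2 and Chkb of CLE and LU livers lie above all HFD livers, and Pcyt1a of CLE and LU livers below them, while Chka overlaps among all groups.

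Groups were compared with limma on log2(FPKM + 1), with adjustment over all 11566 gene names tested, and the fold changes below are on that scale. Between HFD and ND livers, none of the 8 members tested by gene name passed an adjusted p of 0.05, while 12.1% of all gene names did. At an unadjusted p of 0.05, 2 of the 8 passed, as did 3149 of the 11566 gene names. The log2 fold changes of the 8 members lay between -0.29 and 0.48, with a median of -0.14 against 0.11 over all gene names. Chkb (-0.22 ± 0.19, SE) and the chromosome 5 Pisd (-0.13 ± 0.15) did not pass either. Between CLE and HFD livers, Pcyt1a fell and Pcyt2 rose, which is 2 of 8 members against 6.03% of all gene names, and Chkb rose in the M21 fit, where 5.72% of genes passed. Between LU and HFD livers none passed, against 1.03% of gene names. Before adjustment 3 of the 8 passed, as did 2346 of the 11566 gene names. Between CLE and LU livers, none of the 8 passed before or after adjustment. Of the 11566 gene names, 508 passed before adjustment and 0.00865% (1 gene) after it.

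Against ND, the extract and luteolin groups differed in more members. Between CLE and ND livers, Pcyt1a and Etnk1 were lower and the scaffold Pisd was higher, 3 of 8 members against 27% of all gene names, and Chkb was higher in the M21 fit (26.7% of genes). Between LU and ND livers, Etnk1 was lower and the scaffold Pisd higher, 2 of 8 against 14.9%. These shares rest on 8 genes and are near the background, and the CLE and LU comparisons share their ND or HFD livers. Among the 4 groups, the F test passed for Pcyt1a, Pcyt2, Etnk1 and the scaffold Pisd, 4 of 8 against 24.4% of all gene names, and for Chkb against 23.6% of M21 genes.

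**Figure D2:**
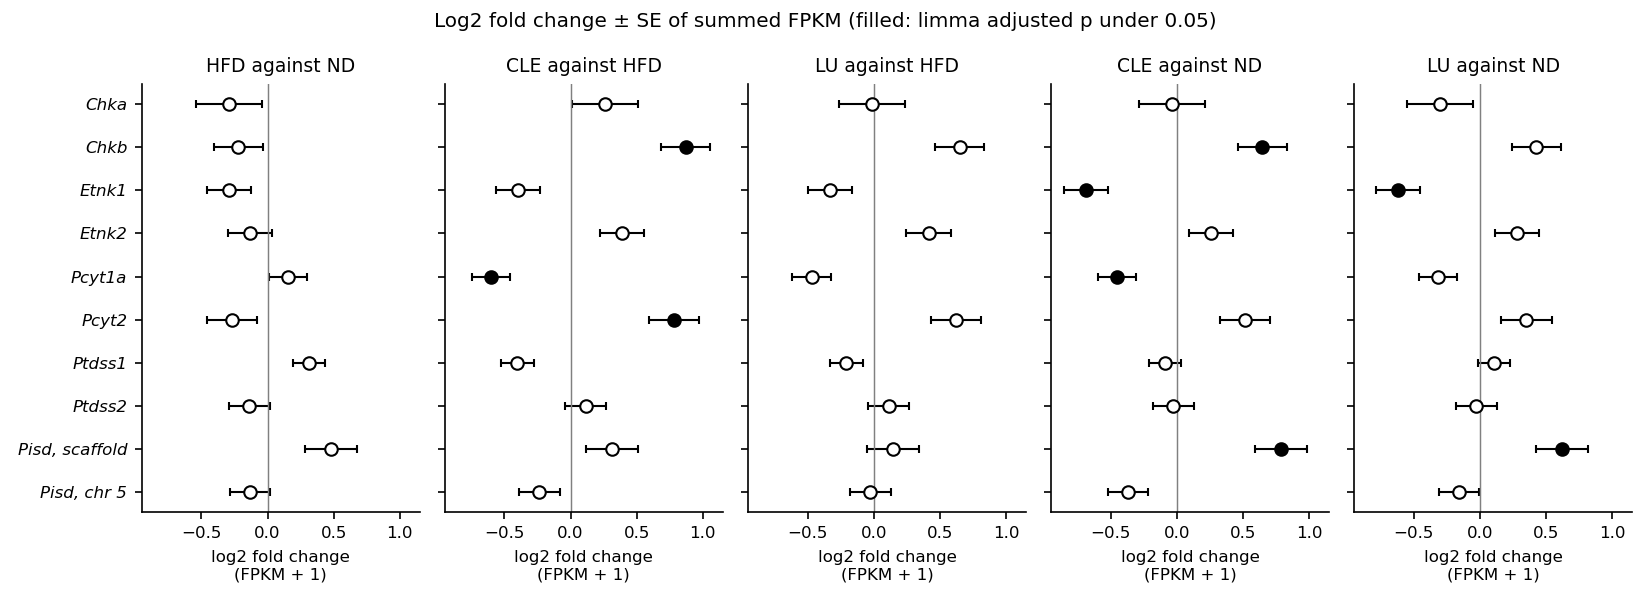
Log2 fold change of summed FPKM (x axis, log2(FPKM + 1) scale) with its SE for each member in 5 comparisons. Filled points passed an adjusted p of 0.05 in limma. Filled points are Chkb, Pcyt1a and Pcyt2 in CLE against HFD, Chkb, Etnk1, Pcyt1a and the scaffold Pisd in CLE against ND, and Etnk1 and the scaffold Pisd in LU against ND.

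Library measures moved along with the groups and bear on every comparison of CLE or LU livers with ND or HFD livers. The libraries' deviations from the mean of all libraries correlated with the GC content of the gene (Spearman's rho across genes) at -0.37 to -0.14 in ND and HFD livers and at 0.16 to 0.48 in CLE and LU livers, with the highest value in CLE mouse 4. Over the 3223 gene names that have both kinds of row, the median share of FPKM in rows that reach within 1000 bases of the gene's 5′ end was 70.65% to 76.3% in ND and HFD livers and 51.8% to 67.2% in CLE and LU livers, lowest in CLE mouse 4. Neither measure overlapped between these groups of libraries, so that treatment and library cannot be told apart through them. The FPKM summed over all gene names was 5575486 in CLE mouse 4 and 1698823 to 3633939 in the other livers. The part of this total in the values of CLE mouse 4 was not tested. In whole liver, fewer cells of a type and less RNA per cell cannot be told apart either. Hepatocyte markers without albumin summed to 14652 to 16969 FPKM in ND and 15960 to 18457 in HFD livers. They summed to 16471 to 22137 in CLE and 18059 to 20550 in LU livers. Albumin itself was listed at 0 in 11 of 12 livers. Markers of macrophages summed to 92.5 to 105.6 FPKM in ND and 105.8 to 202.0 in the other livers, those of stellate cells to 72.6 to 102.6 and 127.3 to 201.3, those of endothelial cells to 63.4 to 74.8 and 80.1 to 111.1, those of lymphocytes to 6.22 to 8.53 and 7.12 to 13.6 and those of cholangiocytes to 1.37 to 2.52 and 1.82 to 4.31. Single markers did not all follow these sums. The hepatocyte marker Cps1 had 781, 726 and 1048 FPKM in ND and 535, 647 and 582 in HFD livers. In CLE livers Cps1 had 494, 308 and 483 and in LU livers 422, 470 and 446. The endothelial marker Kdr had 8.58, 9.97 and 8.85 FPKM in ND and 6.71, 8.10 and 7.73 in HFD livers. The macrophage marker Emr1 had 4.56, 3.84 and 4.10 in ND and 5.10, 5.55 and 6.86 in HFD livers. It had 2.14 and 2.99 in CLE mice 4 and 11 and 3.03 in LU mouse 2. All markers of these lists had a mean of at least 0.5 FPKM except 3 of 5 for cholangiocytes. None of the 4 adipocyte markers did, and their sum stayed at or under 0.384 FPKM outside the LU group, in which it reached 1.02 to 1.35. The part of these markers in the results was not tested.

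Of the choline kinases, Chkb passed comparisons and Chka did not, and their ratio within a liver, given with the other ratios, did not pass the test among the groups. Chka (chr19:3851773-3894369, plus strand), the kinase isoform that is inducible and drives phosphocholine in growing cells, had 32.8, 21.4 and 38.3 FPKM in ND, 23.6, 34.0 and 17.9 in HFD, 32.1, 32.3 and 24.3 in CLE and 19.1, 23.6 and 30.9 in LU livers. The groups overlapped in every comparison, and no comparison passed (adjusted p of 0.572 among the 4 groups). Chkb, the isoform whose loss causes a muscular dystrophy in mice, had 52.1, 36.1 and 43.6 FPKM in ND, 38.9, 34.7 and 37.8 in HFD, 59.7, 97.3 and 55.6 in CLE and 59.5, 55.0 and 62.2 in LU livers. All 6 CLE and LU livers lay above all 6 ND and HFD livers, and 16.3% of M21 genes were higher without overlap in CLE than in HFD livers and 13.3% in LU livers (31.8% and 29.4% against ND). The other rows named Cpt1b, which include readthrough transcripts over both genes, separated in the same way. They had 4.39 to 8.04 FPKM in ND, 5.73 to 7.34 in HFD, 8.80 to 17.7 in CLE and 8.77 to 11.96 in LU livers. Whether Chkb differs apart from its neighbour was not tested. The near full-length Chkb row ENSMUST00000023289 had 11.99 to 15.8 FPKM in ND and 9.20 to 11.1 in HFD livers. It had 12.5 to 19.2 in CLE and 12.7 to 14.99 in LU livers, overlapping ND but not HFD. ENSMUST00000171140, which starts further inside the gene (38.2% of Chkb FPKM), had 12.9 to 15.5 in ND and 13.01 to 15.9 in HFD livers. It had 20.1 to 43.6 in CLE and 22.4 to 23.2 in LU livers, without overlap. The difference between these rows was not tested, and how many other rows separated in this way was not counted. In the M21 fit Chkb was higher in CLE than in HFD livers by 0.87 ± 0.19 (SE) on the log2 scale (adjusted p = 0.0315) and than in ND livers by 0.65 ± 0.19 (adjusted p = 0.0246), whereas LU against HFD gave 0.65 ± 0.19 (adjusted p = 0.106). Without CLE mouse 4, the CLE and HFD groups differed by 0.62 (adjusted p = 0.0721, range 0.0131 to 0.139 over its alternatives). Without HFD mice 12, 15 or 18 in turn the call was lost as well, and the call against ND was lost without ND mice 3 or 4 or CLE mouse 4 and with median-of-ratios scaling (0.48, adjusted p = 0.088). With correction for GC content, the difference from HFD was 0.77 (adjusted p = 0.0434) and that from ND 0.41 (adjusted p = 0.130, range 0.0188 to 0.169).

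Within the choline branch, the rate-limiting Pcyt1a (chr16:32430921-32475070, plus strand) had 22.5, 24.3 and 23.9 FPKM in ND, 23.6, 29.4 and 26.1 in HFD, 21.3, 14.9 and 15.3 in CLE and 19.5, 16.0 and 21.1 in LU livers. All CLE and LU livers lay below all ND and HFD livers. Non-overlap with HFD in this direction was shared by 15% of all gene names for CLE and 16.9% for LU, and non-overlap with ND by 10.1% and 11.5%. Pcyt1a fell by 0.60 ± 0.14 (SE) on the log2 scale in CLE against HFD livers (adjusted p = 0.037) and was lower by a log2 difference of -0.45 ± 0.14 in CLE than in ND livers (adjusted p = 0.037). In LU livers the log2 differences were -0.47 ± 0.14 from HFD (adjusted p = 0.121) and -0.32 ± 0.14 from ND (adjusted p = 0.143). A single known transcript, ENSMUST00000079791, held 92.3% of Pcyt1a FPKM, and no row of the gene started inside it. With correction for GC content the difference of CLE from HFD livers was -0.54 (adjusted p = 0.0463). It was -0.51 without CLE mouse 4 (adjusted p = 0.145, range 0.00767 to 0.154 over 24 alternatives, of which 14 passed), and the call was also lost without ND mouse 4, HFD mice 12, 15 or 18, CLE mouse 11 or LU mouse 2. The call against ND was lost without any 1 of the ND mice and without CLE mice 4 or 11 (adjusted p of 0.0649 to 0.126 in these fits).

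In the ethanolamine branch, Pcyt2 (chr11:120610087-120617936, minus strand) moved the other way from Pcyt1a. It had 292, 285 and 247 FPKM in ND, 234, 210 and 238 in HFD, 306, 578 and 339 in CLE and 356, 370 and 325 in LU livers. All CLE and LU livers lay above all ND livers, which in turn lay above all HFD livers, and 16.3% of gene names were higher without overlap in CLE than in HFD livers and 13.1% in LU livers. Against ND these shares were 32.2% and 29.4%, and 7.44% were lower without overlap in HFD than in ND livers. Pcyt2 rose by 0.78 ± 0.19 (SE) on the log2 scale in CLE against HFD livers (adjusted p = 0.038), while LU against HFD gave 0.62 ± 0.19 (adjusted p = 0.119), CLE against ND 0.51 ± 0.19 (adjusted p = 0.0603) and HFD against ND -0.27 ± 0.19 (adjusted p = 0.396). CLE mouse 4, whose library also had the highest summed FPKM, had the highest value. Without this mouse the difference from HFD was 0.50 (adjusted p = 0.0782, range 0.00987 to 0.150 over 24 alternatives, of which 12 passed). Leaving out ND mouse 4, HFD mice 12, 15 or 18 or LU mouse 2 also ended the call.

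The main transcript of Pcyt2 differed less than the sum over all its rows. The known full-length ENSMUST00000026129 had 112, 111 and 92.1 FPKM in ND, 80.6, 75.7 and 89.6 in HFD, 109, 104 and 95.8 in CLE and 120, 88.6 and 113 in LU livers, and its difference between CLE and HFD livers was 0.32 (adjusted p = 0.145). A transcript assembled from the reads at the same locus had 51.9, 36.5 and 25.8 FPKM in ND, 39.3, 33.0 and 45.4 in HFD, 58.5, 187 and 83.6 in CLE and 78.5, 98.4 and 72.4 in LU livers. Assembled transcripts held 40.7% of Pcyt2 FPKM. The GC content of Pcyt2, 58.9%, was the highest among the members and lay at percentile 92.6 of all tested genes. With correction for GC content, CLE and HFD livers differed by 0.54 (adjusted p = 0.0671) and CLE and ND livers by 0.13 (adjusted p = 0.576).

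Of the ethanolamine kinases, Etnk1 passed comparisons with ND and Etnk2 passed none, and the test of their ratio did not pass. Etnk1 (chr6:143167221-143232307, plus strand), the broadly expressed kinase, had 26.9, 27.9 and 29.8 FPKM in ND, 20.7, 27.1 and 21.2 in HFD, 22.5, 14.8 and 15.02 in CLE and 15.8, 17.1 and 21.6 in LU livers. CLE and LU livers lay below all ND livers, as 10.1% and 11.5% of all gene names did, and overlapped HFD livers. Etnk1 was lower than in ND livers by log2 differences of -0.69 ± 0.17 (SE) in CLE livers (adjusted p = 0.0128) and -0.62 ± 0.17 in LU livers (adjusted p = 0.0293), and HFD against ND gave -0.29 ± 0.17 (adjusted p = 0.286). The call in LU livers was lost without any 1 of the 3 ND mice and without LU mouse 2 or 3 (adjusted p of 0.0632 to 0.0931 in these fits, range 0.00518 to 0.928 over 25 alternatives, of which 17 passed).

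The known Etnk1 transcript ENSMUST00000032413, the only row that reached the 5′ end, had 8.32, 7.99 and 11.2 FPKM in ND, 4.17, 10.2 and 5.40 in HFD, 3.22, 1.27 and 1.12 in CLE and 1.22, 1.83 and 1.78 in LU livers. Rows that start inside that transcript and share its 3′ end had 18.6, 19.95 and 18.6 FPKM in ND, 16.5, 16.9 and 15.8 in HFD, 19.3, 13.5 and 13.9 in CLE and 14.5, 15.3 and 19.8 in LU livers. The row reaching the 5′ end was lower in all CLE and LU livers than in the others, and the inner rows overlapped among HFD, CLE and LU. The row reaching the 5′ end alone gave log2 differences from HFD of -1.40 in CLE (adjusted p = 0.0376) and -1.47 in LU livers (adjusted p = 0.0456). How many other genes passed among known transcripts alone, or separated in this way, was not counted. These values therefore do not set Etnk1 apart from other genes. The inner row with the highest level, 62.2% of Etnk1 FPKM, gave -0.22 for CLE against ND (adjusted p = 0.445) and -0.03 for LU against ND (adjusted p = 0.928). The share of rows reaching the 5′ end was lower in CLE and LU libraries over all such genes (above), and its part in the Etnk1 values was not tested. With correction for GC content, which is low in Etnk1 (43.6%, percentile 16.3), CLE and ND livers differed by -0.66 (adjusted p = 0.0103).

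**Figure D3:**
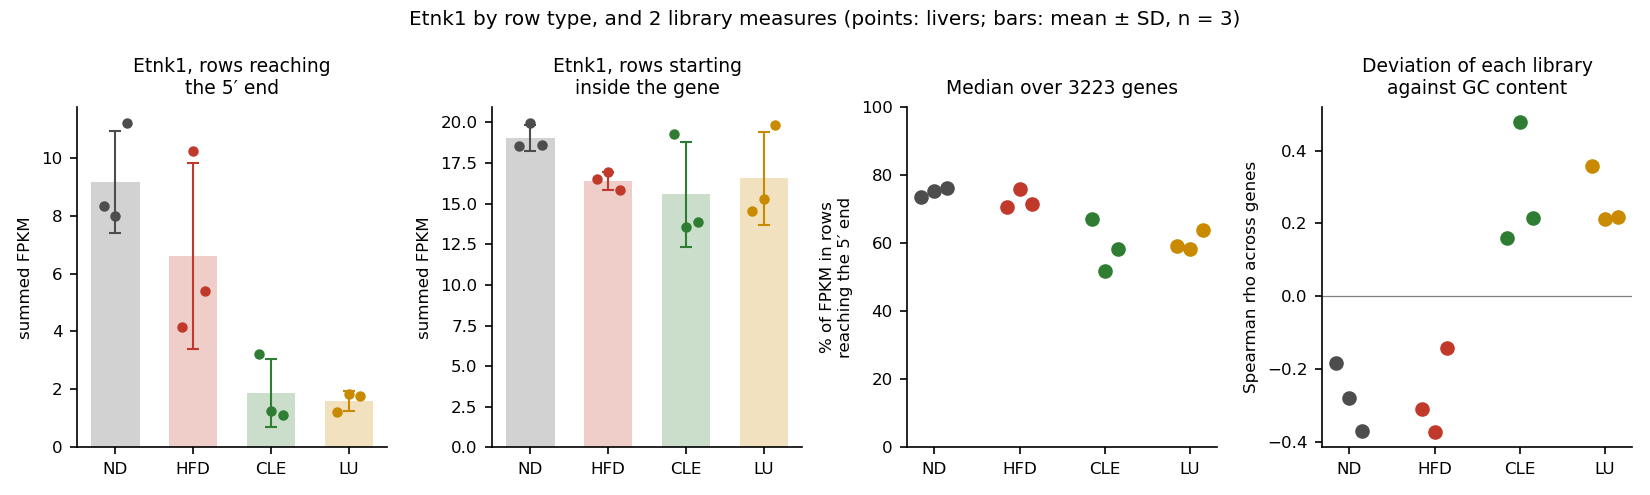
Etnk1 FPKM (y axis, from 0) of rows that reach the 5′ end and of rows that start inside the gene, and, for each library, the median percentage of FPKM in rows reaching the 5′ end over 3223 genes and Spearman's rho between its deviation and GC content. Points are livers and bars means ± SD (n = 3). The row reaching the 5′ end and both library measures set CLE and LU livers apart from ND and HFD livers, and the inner rows do not.

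Etnk2 (chr1:133363572-133380336, plus strand), the kinase known for its high level in liver, had 116, 126 and 138 FPKM in ND, 110, 117 and 119 in HFD, 147, 166 and 141 in CLE and 215, 132 and 128 in LU livers. All CLE and LU livers lay above all HFD livers, without passing the test (0.39 ± 0.17 for CLE against HFD, adjusted p = 0.145, and 0.42 ± 0.17 for LU against HFD, adjusted p = 0.196). Of all gene names, 16.3% were higher without overlap in CLE than in HFD livers and 13.1% in LU livers. CLE livers also lay above all ND livers, as 32.2% of gene names did. Its short row ENSMUST00000129213, which starts inside the gene, had 6.77, 7.03 and 14.6 FPKM in ND, 7.29, 18.3 and 16.1 in HFD, 19.5, 65.5 and 32.5 in CLE and 48.8, 27.7 and 26.2 in LU livers. Rows reaching the 5′ end ranged from 104 to 114 FPKM in ND, 89.7 to 96.8 in HFD, 93.9 to 116 in CLE and 96.0 to 156 in LU livers.

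On the phosphatidylserine route, Ptdss1 (chr13:66932830-66998401, plus strand), which uses PC, had 17.8, 18.3 and 16.9 FPKM in ND, 21.2, 23.9 and 21.3 in HFD, 19.2, 13.4 and 17.5 in CLE and 19.7, 18.3 and 19.2 in LU livers. HFD livers lay above all other livers. Of all gene names, 29.1% were higher without overlap in HFD than in ND livers and 15% and 16.9% lower in CLE and LU than in HFD livers. The differences did not pass the test (0.31 ± 0.12 for HFD against ND, adjusted p = 0.119, -0.40 ± 0.12 for CLE against HFD, adjusted p = 0.0627, and -0.21 ± 0.12 for LU against HFD, adjusted p = 0.349). Ptdss2 (chr7:141122382-141157606, plus strand), which uses PE, ranged from 4.89 to 7.44 FPKM in ND, 4.40 to 5.99 in HFD, 4.95 to 6.80 in CLE and 5.65 to 6.31 in LU livers. The Ptdss2 groups overlapped in every comparison (adjusted p of 0.844 among the 4 groups).

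The decarboxylase had rows at 2 loci, and the difference between the loci was not tested. The scaffold rows of Pisd, which the table describes as a phosphatidylserine decarboxylase proenzyme, had 60.7, 73.5 and 44.3 FPKM in ND, 80.6, 78.5 and 85.7 in HFD, 87.9, 112 and 105 in CLE and 70.1, 118 and 89.0 in LU livers. They were higher than in ND livers by log2 differences of 0.79 ± 0.20 (SE) in CLE livers (adjusted p = 0.0141) and 0.62 ± 0.20 in LU livers (adjusted p = 0.0492), and by 0.48 ± 0.20 in HFD livers, which did not pass (adjusted p = 0.134). The CLE and HFD groups lay above ND without overlap, as 32.2% and 29.1% of all gene names did. The difference in LU livers was 0.43 both without ND mouse 4 (adjusted p = 0.177) and without LU mouse 3 (adjusted p = 0.171), and it ranged over an adjusted p of 0.0326 to 0.209 in 23 alternatives, of which 7 passed. It was also lost without ND mouse 2, any 1 of the HFD mice, CLE mouse 11 or LU mouse 8. In CLE livers the call was lost without ND mouse 4 (0.59, adjusted p = 0.0574) and without CLE mouse 4 (0.71, adjusted p = 0.0506).

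The chromosome 5 Pisd had 20.7, 21.2 and 19.1 FPKM in ND, 18.2, 20.2 and 17.1 in HFD, 20.5, 13.5 and 13.4 in CLE and 18.5, 15.7 and 20.5 in LU livers. All groups overlapped ND and no comparison passed (-0.37 ± 0.15 for CLE against ND, adjusted p = 0.0874). With correction for GC content CLE and ND livers differed by -0.60 (adjusted p = 0.0231). The pseudogene Pisd-ps1 had higher values in CLE than in HFD livers (0.93 ± 0.25, adjusted p = 0.0478) and ND livers (1.01 ± 0.25, adjusted p = 0.0143). Whether the locus on the scaffold, the locus on chromosome 5 or the copies yielded these reads cannot be told apart in the deposited values.

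Ratios of paired enzymes within a liver do not depend on the scaling of the library. They can still change with correction for GC content. The ratio of Pcyt1a to Pcyt2 was 0.0770, 0.0854 and 0.0969 in ND, 0.101, 0.140 and 0.110 in HFD, 0.0697, 0.0258 and 0.0452 in CLE and 0.0547, 0.0432 and 0.0648 in LU livers. HFD livers had the highest ratios and CLE and LU livers the lowest, with no overlap of CLE or LU with either other group. The separation of CLE and LU follows from the values of Pcyt1a and Pcyt2 given above, and is not a further result. The test below draws on the same values. How many other pairs of genes separate in this way was not counted. An exact permutation test, which compared F with its value in all 369600 ways to divide the livers, gave p = 0.0085 (adjusted over the 4 ratios p = 0.034). The test did not pass with correction for GC content (adjusted p = 0.0501) or without any 1 of the ND or HFD mice, CLE mouse 11 or LU mouse 2 (adjusted p of 0.0516 to 0.0953). The mean log2 ratio was -3.54 ± 0.17 (SD, n = 3) in ND, -3.11 ± 0.25 in HFD, -4.53 ± 0.72 in CLE and -4.22 ± 0.29 in LU livers. Each pairwise exact permutation test among HFD and ND, CLE and HFD, and LU and HFD gave p = 0.1, the smallest that 3 livers against 3 allow.

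Etnk2 exceeded Etnk1 by 4.32- to 4.61-fold in ND, 4.29- to 5.61-fold in HFD, 6.53- to 11.2-fold in CLE and 5.93- to 13.7-fold in LU livers. All CLE and LU livers lay above all ND and HFD livers, and the exact permutation test gave p = 0.033 (adjusted p = 0.066 over the 4 ratios). The adjusted p of this test was 0.138 with correction for GC content and 0.972 with the top transcripts alone. Etnk2 lies at percentile 88.5 of GC content and Etnk1 at percentile 16.3. The share of other gene pairs that separate in this way was not counted. The ratio of Chka to Chkb ranged from 0.593 to 0.877 in ND, 0.473 to 0.979 in HFD, 0.332 to 0.538 in CLE and 0.321 to 0.498 in LU livers (exact permutation p = 0.099, adjusted p = 0.13). Ptdss1 exceeded Ptdss2 by 2.46- to 3.63-fold in ND, 3.56- to 4.82-fold in HFD, 1.96- to 3.53-fold in CLE and 3.12- to 3.29-fold in LU livers, and the exact permutation test gave p = 0.16, both before and after adjustment.

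**Figure D4:**
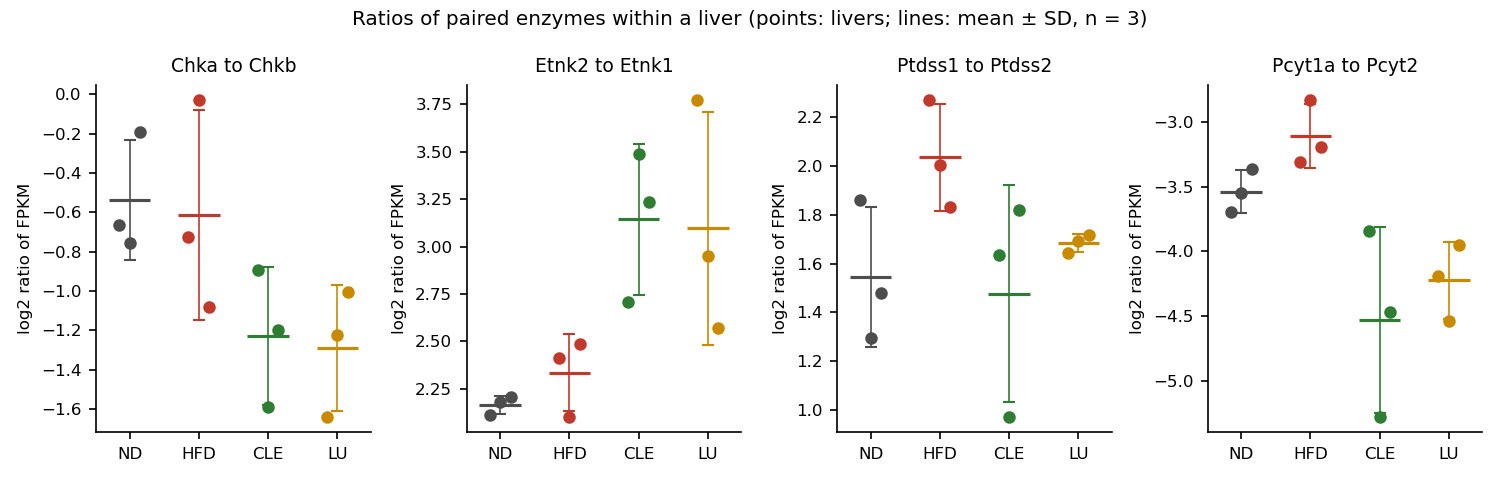
Log2 ratio of summed FPKM (y axis, log2 scale) of 4 pairs of enzymes in each liver by group. Points are livers and lines means ± SD (n = 3). The Pcyt1a to Pcyt2 ratio is highest in HFD and lowest in CLE and LU livers, and the Etnk2 to Etnk1 ratio is higher in all CLE and LU livers than in all others.

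Over the 12 livers, the gene names with the pattern most like that of Pcyt1a (Pearson's r of log2 values over the 12 livers, which share groups and library measures) included Dag1 (0.98) and Aldh5a1 (0.97). Those most like Pcyt2 were the glucagon receptor Gcgr (0.98), Trmt1 (0.97) and E4f1 (0.97), and those most like Etnk1 were Slc37a3 (0.99), the kinase Pdpk1 (0.98) and Cald1 (0.98). The scaffold Pisd was most like Rusc1 (0.96), Mcm3ap (0.94) and Prkcd (0.94), and Chkb most like the proteasome subunit Psmd4 (0.96), 4833420G17Rik (0.96) and C730034F03Rik (0.95).

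Around these enzymes, 19 of 25 listed genes of head group transport, final transfer, methylation and phospholipid turnover could be tested. Between HFD and ND livers, 1 was higher and 2 were lower, where 12.1% of all gene names passed, namely Chpt1, the cholinephosphotransferase that takes up CDP-choline (0.79 ± 0.10), against Pnpla7 (-1.07 ± 0.12), a lysophospholipase, and Gpcpd1 (-1.06 ± 0.32), which frees choline from glycerophosphocholine. Between CLE and HFD livers (6.03% of all gene names passed), Pnpla7 was higher (1.02 ± 0.12) and Chpt1 (-0.44 ± 0.10), the dual transferase Cept1 (-0.45 ± 0.10) and the choline transporter Slc44a1 (-0.72 ± 0.16) were lower. Between LU and HFD livers (1.03%), Pnpla7 was higher (0.87 ± 0.12) and Cept1 lower (-0.50 ± 0.10). With correction for GC content, Chpt1 and Cept1 no longer passed for CLE against HFD, nor Cept1 for LU against HFD. Cept1 has a GC content of 40.4% (percentile 5.82). Between CLE and LU livers none passed, also at an unadjusted p of 0.05, which 508 of the 11566 gene names passed.

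Against ND, where 27% of all gene names passed for CLE and 14.9% for LU, listed genes that were higher in both CLE and LU livers included Chpt1 (0.35 ± 0.10 and 0.44 ± 0.10), Slc44a2 (0.68 ± 0.13 and 0.45 ± 0.13), another choline transporter, and the phospholipase Pnpla6 (0.56 ± 0.13 and 0.55 ± 0.13). With median-of-ratios scaling the listed genes higher than in ND went from 4 to 2 in CLE and from 4 to 0 in LU livers, and with correction for GC content to 1 and 1. Listed genes lower than in ND went from 1 to 5 in CLE and from 2 to 3 in LU livers with median-of-ratios scaling. With correction for GC content they were 2 in CLE and 2 in LU livers. Lower in both was Ept1, the ethanolaminephosphotransferase now named Selenoi (-0.82 ± 0.13 and -0.88 ± 0.13). Sgpl1, whose cleavage of sphingosine phosphate yields phosphoethanolamine, was lower in LU livers only by this threshold (-0.41 ± 0.11), and the difference of CLE from LU was not past it. On the deposited scale, the median log2 fold change of all gene names against ND was 0.11 in HFD, 0.16 in CLE and 0.12 in LU livers.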

How the data were processed

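RNA of 12 mouse livers was sequenced as paired reads. The submitters' processing notes name CASAVA 1.8.2, Bowtie2 2.2.3, TopHat2 2.0.12 and Cufflinks 2.2.1. The authors deposited FPKM values for 152210 transcripts (78786 known, 73424 assembled). Their methods mention DEGES and edgeR factors, and whether these are part of the deposited values is not given in the sources used here. No build is named, and 87.6% of known transcripts found in GENCODE M21 (GRCm38) have its start and end, so its coordinates are used. FPKM values hold no read counts, so depth is unknown and no counting error is given.

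FPKM was summed per gene name and tested with limma 3.58.1 in R 4.3.3 on log2(FPKM + 1), with the variance trend, all 12 livers in 1 fit, gene names with a mean of at least 0.5 FPKM (11566), two-sided, and Benjamini-Hochberg adjustment at 0.05. Each liver is from 1 mouse, with 3 mice a group. The limma p-values rest on the spread between mice pooled over the 4 groups and moderated over all genes. Mice outside a comparison therefore also bear on its p-value. Ratios used an exact permutation test of F. The script was tested on simulated data. The GC correction subtracted from each library a smooth of its deviation against the GC content of the gene's main transcript (99.3% of gene names had a value). The M21 sums, their GC correction, the length correction and the 5′ shares were chosen after seeing the data. Rows count as reaching the 5′ end within 1000 bases of the first known start, for gene names on 1 chromosome strand with a mean of at least 5 FPKM and a mean share between 5% and 95%. Promoters are from RefSeq. Named are the 10 members, listed pathway genes that passed, the 3 genes most like each member that passed the F test, and the copies and neighbours of Chkb and Pisd. Some genes that this rule names are not reported here. Members and lists were chosen with earlier results of these data known. Alternatives were a pseudocount of 0.1, no filter or a mean of 5 FPKM, median-of-ratios or quantile scaling, the 2 groups alone, no variance trend, the top or the known transcripts alone, no antisense or intronic rows, each mouse left out and the mouse number as a block.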

Additional observations from a re-analysis of the deposited data

How the results depend on the processing

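The values carry no read counts, the 3 mice a group allow few firm calls, and the library measures that set CLE and LU livers apart limit every comparison across that line. The 9 calls of single members had 200 alternatives, of which 130 passed and 70 did not. Over all 1350 values of single genes, most of them never called, 18 gained a call. The cause of the changes below was not tested, except where a member was not in the fit. CLE against HFD counted 2 members, and 0 with no filter, the 2 groups alone or the top transcript, 1 with the GC or GC and length correction, and 0 to 4 with 1 mouse left out. LU against HFD counted 0, 1 with the 2 groups alone (Pcyt2) or known transcripts alone (Etnk1), and 0 to 1 with 1 mouse left out. HFD against ND counted 0, and 0 to 1 with 1 mouse left out (Ptdss1 passed without CLE mouse 4). CLE against ND counted 3, and 1 to 4 with 1 mouse left out. LU against ND counted 2, 0 with no filter or the top transcript, 1 with median-of-ratios scaling, quantile normalization, the 2 groups alone, no variance trend, the GC correction, the GC and length correction or M21 sums (the last 3 without the scaffold Pisd, which has no GC value and is no Pisd gene in M21), and 0 to 3 with 1 mouse left out. The F test counted 4, 0 with no filter, 1 with the top transcript, 2 with either correction (without the scaffold Pisd), and 0 to 5 with 1 mouse left out. CLE against LU counted 0 under all alternatives run.

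The values in this paragraph are HFD minus ND, and the exact test named with them is the one among the 4 groups, since 3 livers against 3 cannot pass. The log2 ratio of Chka to Chkb was -0.07, -0.29 with known transcripts alone, where the test among 4 groups passed, and -0.37 to 0.16 with 1 mouse left out (0.10 without ND mouse 4 and 0.16 without HFD mouse 18). That of Etnk2 to Etnk1 was 0.17, -0.0796 with the top transcripts, 0.42 with known transcripts alone, where the test among 4 groups passed, and 0.094 to 0.286 with 1 mouse left out (the test among 4 groups passed without LU mouse 8). That of Ptdss1 to Ptdss2 was 0.49, 0.067 with the top transcripts, 1.33 with known transcripts alone, where the test among 4 groups passed, and 0.37 to 0.65 with 1 mouse left out. That of Pcyt1a to Pcyt2 was 0.43, and it was 0.44 with the GC correction and 0.29 to 0.53 with 1 mouse left out, and the test among 4 groups was lost with GC correction and without any 1 of the ND or HFD mice, CLE mouse 11 or LU mouse 2.

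Gene names called between HFD and ND livers were 1156 higher and 244 lower as deposited, and 620 and 504 with median-of-ratios scaling, which put the median of all genes at -0.01. CLE against ND gave 2416 and 703, then 1219 and 1618, and LU against ND 1290 and 437, then 709 and 1032. Deviations of livers with the same mouse number correlated at -0.26 to 0.18. Livers with different numbers were not compared in this way, so whether the numbers pair the livers is not settled. With the number as a block, over the 9 ND, CLE and LU mice, 0 members passed for CLE against ND, 0 for LU against ND and 0 for CLE against LU. No HFD mouse has a number that occurs elsewhere.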
